A study of Homo sapiens with 12 samples.

Results

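The insulin-like growth factor (IGF) axis was examined as 10 transcripts in pancreatic adenocarcinoma cells sorted with the GCTM-5 antibody. The members are the ligand *IGF2*, its imprinted neighbour *H19*, the receptors *IGF1R* and *IGF2R*, and 6 genes of the binding protein family, *IGFBP2* to *IGFBP7*. They were chosen by symbol, with earlier results of these data known, and are 10 of the 23346 genes in the deposited table. *INS-IGF2*, a readthrough gene whose exons overlap those of *IGF2*, was left out as a member.

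SW1990 and CFPAC-1 are established human pancreatic adenocarcinoma lines whose cultures hold cells with and without the GCTM-5 antigen, a cell surface glycoprotein epitope. Each line was stained and sorted into strongly positive and negative cells, with intermediate cells outside the gates, and RNA-seq was performed on 3 samples per group, which gave 12 samples in 4 groups. No group carried a treatment or genetic change, and all 4 were cultured in the same way. The sample labels describe growth in Iscove's medium with fetal bovine serum, whereas the methods of the study describe RPMI medium with serum and a supplement that contains insulin. The comparison asks how the transcripts of positive and negative cells of 1 line differ.

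IGF2 and IGF1 are secreted ligands that activate the IGF1 receptor, and IGF2 also activates the insulin receptor. The IGF2 receptor, which carries mannose 6-phosphate tagged enzymes to lysosomes, takes up IGF2 and removes it. Binding proteins hold the ligands outside the cell, and proteases release the ligands by cutting them. *IGF2* and *H19* are imprinted genes of opposite parental expression on chromosome 11, and *IGF2* is a fetal growth factor that many tumours express.

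Values are RPKM, the reads of a gene divided by its length in kilobases and by the size of the library, so levels can be compared between genes. Each value was traced back to whole reads, and the libraries held 9969697 to 26159330 reads. For the tests, 0.1 was added to the RPKM, log2 was taken, and limma was fitted to the 16236 genes that averaged 0.1 RPKM or more, as 4 group means. Calls required a change beyond 2-fold and p under 0.01 before adjustment, which are the thresholds of the study with its p read as unadjusted. The change in SW1990 minus the change in CFPAC-1 was called as a difference between lines at an adjusted p-value under 0.05, after Benjamini-Hochberg over all genes fitted. All 10 members passed the filter on low values. The labels do not say that the samples of a group were separate cultures, so p-values measure the spread between these samples. In sorted populations, fewer cells that express a gene and less RNA per cell cannot be told apart.

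The cells carried the markers of duct epithelium, apart from *CFTR*, whose mean was below 0.1 RPKM in all 4 groups. The summed RPKM of 9 duct markers was 1678 to 2017 in negative SW1990 cells and 4797 to 5208 in positive ones, and 6 of the 8 tested were higher in positive cells. The sum in CFPAC-1 was 6041 to 6777 in negative and 7037 to 8599 in positive cells, and limma called 0 of the 8, with 3 higher and 1 lower at an unadjusted p-value under 0.05 and 0 called by voom on recovered reads. The summed level of 11 fibroblast markers was 14.3 to 25.0 in negative SW1990 cells and 4.96 to 6.40 RPKM in positive ones, with *THY1* at 0 in both, and 2 of 5 tested were lower in positive cells. The sum was 3.16 to 3.74 in negative CFPAC-1 cells against 3.09 to 3.79 in positive ones, where *COL3A1*, *DCN*, *FAP* and *THY1* were at 0. Of 8 blood and endothelial markers, *HBB* was at 0 in all 4 groups, and 2 of 3 tested were lower in positive SW1990 cells. Their summed level was 48.5 to 64.6 in negative SW1990 cells and 16.6 to 34.4 in positive ones. In CFPAC-1 this sum was 110 to 127 in negative cells and 109 to 163 in positive ones. *CD68* made up most of it in every group, with mean RPKM of 42.0 (negative) and 21.7 (positive) for SW1990 and 120 and 138 for CFPAC-1. *CDH5* averaged 15.6 in negative SW1990 samples and 1.33 in positive ones. Apart from *CD68*, the highest mean in CFPAC-1 was 0.297, for *PECAM1* in negative cells. The 7 islet and acinar markers summed to at most 0.147 RPKM in any sample. The part that these markers play in the changes given here was not tested.

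*IGF2* was the 1 member called lower in positive cells of both lines. *H19* rose and *IGFBP5* fell in positive SW1990 cells, and *IGFBP7* fell in positive CFPAC-1 cells. In SW1990, 1 of 10 members was called higher and 2 lower in positive cells, where 4.59% of all genes tested were called higher and 7.48% lower. In CFPAC-1, limma called 0 members higher and 2 lower, against 5.65% and 4.13% of all genes, and 1 member was higher at an unadjusted p-value under 0.05 while voom on recovered reads called 0 higher. With each sample centred on its median, the share of higher genes among all calls in CFPAC-1 went from 57.7% to 45.8%, and the calls of the members stayed at 3 and 2. Among those not called, 3 further members in SW1990 and 3 in CFPAC-1 had an adjusted p-value under 0.05 with limma at less than 2-fold. The share of all genes with such values is not given here, so these counts do not set the members apart. Over the 10 members, the median log2 fold change was -0.48 in SW1990 and -0.56 in CFPAC-1, while over all genes it was -0.04 and 0.05. The change differed between the lines for 5 of 10 members, and 26.9% of all genes passed the same test. The median of this difference over all genes was -0.15, and it was 0.00 after centring, which left the differences of *IGF2* at -1.99, *H19* at 2.76, *IGFBP5* at -3.13 and *IGFBP7* at 1.82, all called.

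**Figure D1:**
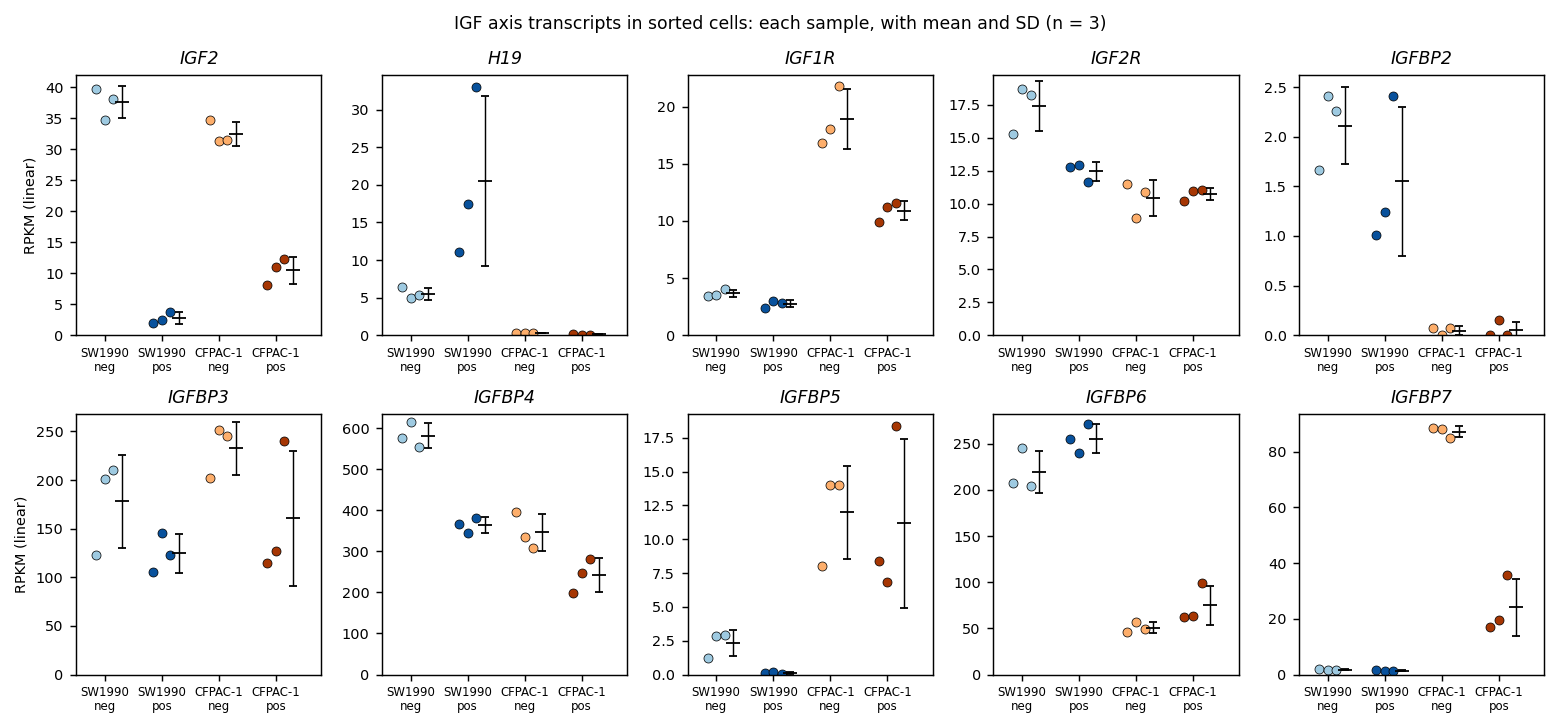
RPKM of the 10 members, 1 panel each on its own linear axis from 0, with a point for each sample, beside the mean and SD of the 3 samples. *IGF2* was between 31.3 and 39.8 RPKM in the 6 negative samples and at most 12.2 in the 6 positive samples, while *IGFBP7* was between 16.9 and 88.7 RPKM in CFPAC-1 and at most 1.81 in SW1990.

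*IGF2* encodes the ligand and lies on the minus strand of chromosome 11 (2150342 to 2179621, GRCh37). In SW1990 it was at 39.8, 34.8 and 38.2 RPKM in negative cells and at 1.98, 2.41 and 3.81 RPKM in positive cells. The populations did not overlap, and the mean was 13.7-fold lower in positive cells. The log2 fold change was -3.78 ± 0.21 (SE, n = 3 per group), with a limma adjusted p of 1.95e-07. In CFPAC-1 the values were 34.6, 31.3 and 31.5 RPKM in negative and 8.09, 11.1 and 12.2 RPKM in positive cells. These populations did not overlap either, and the mean was 3.10-fold lower in positive cells, with a log2 fold change of -1.64 ± 0.21 (SE, n = 3 per group) and a limma adjusted p of 0.000157. The fall was larger in SW1990 by 2.14 on the log2 scale (95% interval of the difference -2.77 to -1.50, limma adjusted p 0.000287). The level in negative cells was 37.6 ± 2.54 RPKM in SW1990 and 32.5 ± 1.89 in CFPAC-1 (SD, n = 3), a log2 difference of 0.21 with a limma adjusted p of 0.383. From the highest level to the lowest the order was negative SW1990, negative CFPAC-1, positive CFPAC-1 and positive SW1990, and only the first pair of neighbours was not called as different.

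Reads of *IGF2* are shared with other genes. *INS-IGF2* overlaps it on the same strand, and its row held 0.933 to 0.989 times as many reads as the *IGF2* row in each sample, so the rows cannot be told apart. *IGF2-AS1*, antisense to *IGF2*, held 21 to 38 reads in negative SW1990 cells and 0 to 8 in positive ones, and 30 to 50 in negative CFPAC-1 cells against 0 to 6 in positive ones. It was called lower in both lines, but in neither with a pseudocount of 1. Whether the authors counted by strand is not given in the sources used here, so these reads cannot be assigned with certainty, but they are few beside the 3956 to 5151 reads of *IGF2* in negative samples. *IGF2* and *INS-IGF2* are also genes that the study named from these samples.

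*H19*, a noncoding RNA, lies 125 kb from *IGF2* (chromosome 11, 2016396 to 2025782, minus strand, GRCh37). In SW1990 it was at 6.39, 4.90 and 5.29 RPKM in negative cells and at 11.1, 17.5 and 33.0 RPKM in positive cells. Every positive sample was above every negative one, although the positive samples spread over a wide range. The mean was 3.72-fold higher in positive cells, and the log2 fold change was 1.74 ± 0.32 (SE, n = 3 per group) with a limma adjusted p of 0.00149. The row of *MIR675*, a microRNA hairpin within *H19*, held 4 to 6 reads in negative SW1990 cells and 12 to 27 in positive ones. These reads cannot be told apart from reads of *H19* itself, so the row is not a separate measure. In CFPAC-1, *H19* was close to the limit of detection. It was at 0.245, 0.297 and 0.326 RPKM in negative cells, which is 11 to 15 reads, and at 0.166, 0.0923 and 0.0869 RPKM in positive cells, which is 2 to 10 reads. The log2 difference of -0.87 ± 0.32 (SE) was not called (limma adjusted p 0.0518), and *MIR675* was at 0 reads in all 6 CFPAC-1 samples. The change of *H19* differed between the lines by 2.61 on the log2 scale (95% interval 1.62 to 3.60, limma adjusted p 0.00139). With voom on the recovered reads this difference was 2.96 and was not called (adjusted p 0.0789).

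The ratio of *H19* to *IGF2* compares both genes within a sample. In negative SW1990 cells *H19* was 0.147 ± 0.0121 times as abundant as *IGF2* per length (SD, n = 3), and in positive SW1990 cells it was 7.17 ± 1.52 times as abundant. The ratio in each of the 3 positive SW1990 samples, 5.61, 7.25 and 8.66, was above 1, and in each of the other 9 samples it was below 1. In CFPAC-1 the ratio was 0.00898 ± 0.00171 in negative and 0.0120 ± 0.00738 in positive cells, which overlapped. Thus *IGF2* exceeded *H19* in both CFPAC-1 populations and in negative SW1990 cells, and the order was the reverse in positive SW1990 cells.

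**Figure D2:**
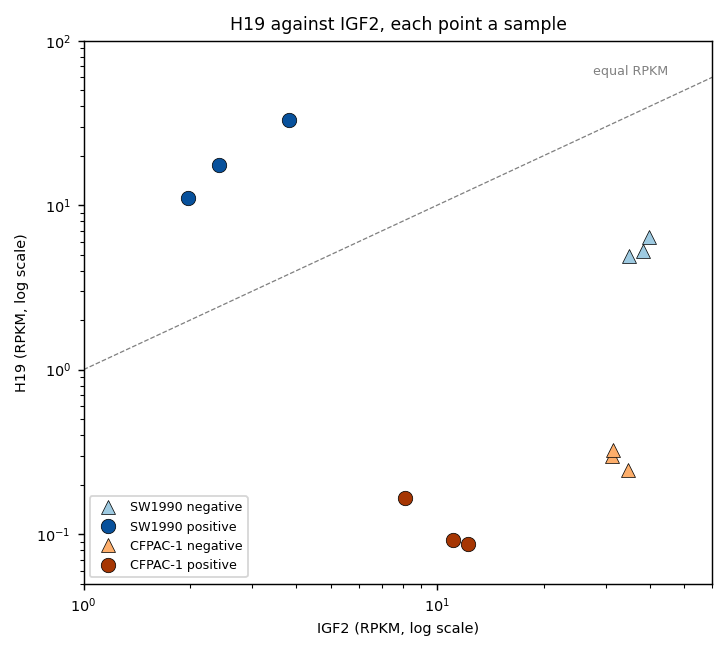
*H19* against *IGF2* in RPKM for the 12 samples, both on log axes, with a dashed line where the 2 are equal. The 3 positive SW1990 samples lie above the line and the other 9 below it, with CFPAC-1 samples at 0.326 RPKM of *H19* or less.

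The receptors moved less than the ligand. *IGF1R*, the signalling receptor (chromosome 15, 99191768 to 99507759, plus strand), was at 3.42, 3.54 and 4.02 RPKM in negative SW1990 cells and 2.41, 3.02 and 2.83 RPKM in positive ones. CFPAC-1 held more of it, 16.8, 18.1 and 21.8 RPKM in negative and 9.95, 11.2 and 11.6 RPKM in positive cells. Negative and positive samples did not overlap in either line, but the difference was under 2-fold in both. The log2 fold changes were -0.40 in SW1990 (limma adjusted p 0.0394) and -0.78 in CFPAC-1 (limma adjusted p 0.000928), and their difference of 0.38 had a 95% interval of -0.03 to 0.79. For SW1990 the limma adjusted p was 0.0631 with a pseudocount of 1 and 0.0749 with median centring. It was 0.150 with quantile normalization and 0.0856 with each line fitted alone. The larger contrast for *IGF1R* was between the lines, with 5.17-fold less in negative SW1990 cells and 3.96-fold less in positive ones than in the same population of CFPAC-1.

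*IGF2R*, the clearance receptor (chromosome 6, 160390114 to 160534539, plus strand), was at 15.3, 18.7 and 18.3 RPKM in negative SW1990 cells and 12.8, 12.9 and 11.6 RPKM in positive ones. The CFPAC-1 values were 11.5, 8.92 and 10.9 RPKM in negative and 10.2, 10.9 and 11.1 RPKM in positive cells. The SW1990 populations did not overlap and the CFPAC-1 populations did. The log2 fold change was -0.48 in SW1990 (limma adjusted p 0.00853), under 2-fold, and 0.05 in CFPAC-1 (95% interval -0.21 to 0.30). The difference between lines of -0.52 had a limma adjusted p of 0.0333 and was not called when each sample was centred on its median (-0.38, adjusted p 0.147). *IGF2R* exceeded *IGF1R* per length by 4.76 ± 0.448 times in negative SW1990 cells and 4.56 ± 0.643 times in positive ones (SD, n = 3). In CFPAC-1 the ratio was 0.558 ± 0.109 in negative and 0.985 ± 0.0334 in positive cells, and every SW1990 sample was above every CFPAC-1 sample.

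The binding proteins included the most abundant transcripts of the axis. The summed RPKM of *IGFBP1* to *IGFBP7* was 1006 ± 80.1 in negative SW1990 cells and 758 ± 28.6 in positive ones, and 747 ± 23.1 in negative CFPAC-1 cells and 534 ± 147 in positive ones (SD, n = 3). Set against *IGF2*, the sum was 27.0 ± 4.03 times as high in negative SW1990 cells and 296 ± 83.9 times as high in positive ones. In CFPAC-1 these ratios were 23.1 ± 1.34 and 51.0 ± 7.12. Positive samples were above negative ones in this ratio in both lines. *IGFBP4* was the largest part in each of the 12 samples, with means of 58.0% and 48.1% in negative and positive SW1990 cells and 46.3% in both CFPAC-1 populations. *IGFBP6* held 21.8% in negative SW1990 cells and 33.7% in positive ones, and 6.80% and 14.0% in CFPAC-1. *IGFBP7* held 11.7% in negative CFPAC-1 cells and 4.40% in positive ones but under 0.23% in each SW1990 sample.

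**Figure D3:**
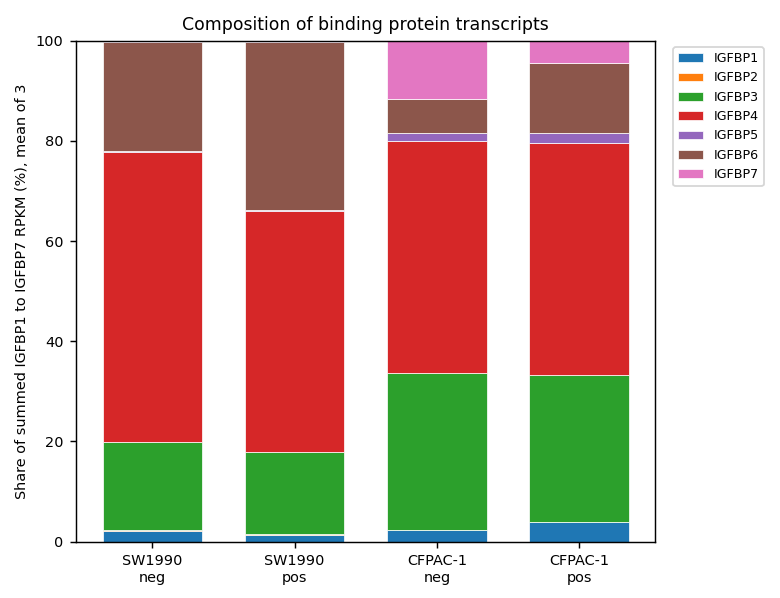
Share of each gene in the summed RPKM of *IGFBP1* to *IGFBP7*, in percent, as the mean of 3 samples in each of the 4 groups. *IGFBP4* is the largest band in each bar, and *IGFBP7* is a visible band in CFPAC-1, at 11.7% in negative and 4.40% in positive cells.

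*IGFBP5*, a binding protein that attaches to extracellular matrix (chromosome 2, 217536828 to 217560272, minus strand), showed the largest fall of the family in SW1990. It was at 1.20, 2.85 and 2.92 RPKM in negative cells, or 154 to 414 reads, and at 0.0826, 0.170 and 0.0724 RPKM in positive cells, or 8 to 18 reads. The samples did not overlap, and the mean was 21.4-fold lower in positive cells. The log2 fold change was -3.47 ± 0.41 (SE, n = 3 per group; limma adjusted p 5.46e-05), and it was -1.54 with a pseudocount of 1 and -4.28 with a pseudocount of 0.01, still called in each. In CFPAC-1 *IGFBP5* was at 8.04, 14.0 and 14.0 RPKM in negative and 8.36, 6.85 and 18.4 RPKM in positive cells. There the populations overlapped, with a log2 difference of -0.19 (95% interval -1.09 to 0.70). The change differed between the lines by -3.28 on the log2 scale (95% interval -4.54 to -2.01, limma adjusted p 0.00153).

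*IGFBP7*, a secreted relative of the family (chromosome 4, 57896939 to 57976551, minus strand), had the reverse pattern by line. In CFPAC-1 it was at 88.7, 88.0 and 84.9 RPKM in negative cells and at 16.9, 19.7 and 35.6 RPKM in positive cells, without overlap. The mean was 3.62-fold lower in positive cells, and the log2 fold change was -1.93 ± 0.22 (SE, n = 3 per group; limma adjusted p 0.000101). In SW1990 it was at 1.81, 1.76 and 1.46 RPKM in negative and 1.64, 1.30 and 1.24 RPKM in positive cells, 29 to 54 reads per sample, and the populations overlapped. The SW1990 log2 difference of -0.25 (95% interval -0.74 to 0.24) was not called, and the difference between lines was 1.68 (95% interval 0.98 to 2.37, limma adjusted p 0.00235). *POLR2B*, whose exons overlap those of *IGFBP7* on the opposite strand, was at 20.1 to 22.1 RPKM in negative CFPAC-1 cells against 15.8 to 18.4 RPKM in positive ones (log2 difference -0.26, limma adjusted p 0.180).

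*IGFBP4*, which inhibits IGF action (chromosome 17, 38599702 to 38613977, plus strand), was lower in positive cells by less than 2-fold in both lines, and so was not called. It was at 577, 614 and 555 RPKM in negative SW1990 cells and 368, 344 and 382 RPKM in positive ones. The level in CFPAC-1 was 397, 334 and 308 RPKM in negative and 199, 247 and 282 RPKM in positive cells. The populations did not overlap in either line, and the log2 fold changes were -0.67 (limma adjusted p 0.00228) and -0.52 (limma adjusted p 0.00984). The difference between them, -0.16, had a 95% interval of -0.56 to 0.25. With each line fitted alone, the limma adjusted p was 0.00498 in SW1990 and 0.0629 in CFPAC-1.

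*IGFBP3*, the main carrier of IGFs in blood (chromosome 7, 45951844 to 45961473, minus strand), was at 123, 201 and 211 RPKM in negative SW1990 cells and 106, 145 and 123 RPKM in positive ones. Values in CFPAC-1 were 202, 251 and 245 RPKM in negative and 114, 127 and 240 RPKM in positive cells. Populations overlapped in both lines, and neither the log2 difference of -0.49 (limma adjusted p 0.208) nor that of -0.61 (limma adjusted p 0.0955) was called. The third positive CFPAC-1 sample, which also had the lowest read total, was the highest of its group for 8 of the 10 members, all but *H19* and *IGFBP2*. The share of all genes highest in that sample is not given here, so the count may not be particular to the members.

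*IGFBP6*, which prefers IGF2 over IGF1 (chromosome 12, 53491220 to 53496129, plus strand), was at 208, 246 and 204 RPKM in negative SW1990 cells and 255, 240 and 271 RPKM in positive ones. In CFPAC-1 it was at 46.1, 57.0 and 49.4 RPKM in negative and 62.4, 63.2 and 99.2 RPKM in positive cells. The samples overlapped in SW1990 but not in CFPAC-1. The log2 fold changes were 0.22 (limma adjusted p 0.349) and 0.53 (limma adjusted p 0.0233), neither of them called. In CFPAC-1 the limma adjusted p was 0.0674 with median centring and 0.101 with each line fitted alone. Between the lines, *IGFBP6* was 4.31-fold higher in negative SW1990 cells and 3.41-fold higher in positive ones than in the same population of CFPAC-1.

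*IGFBP2* lies 7.67 kb from *IGFBP5* on chromosome 2 (217497551 to 217529159, plus strand), and its product is a carrier of both IGFs. It was at 1.67, 2.41 and 2.26 RPKM in negative SW1990 cells and 1.01, 1.24 and 2.41 RPKM in positive ones, where the samples overlapped and the log2 difference of -0.50 (95% interval -1.40 to 0.41) was not called. In CFPAC-1 negative samples held 0 to 2 reads and positive samples 0 to 4, too few for a fold change between them. In negative cells it was at least 20.5-fold higher in SW1990 than in CFPAC-1, computed against a floor of 3 reads per library, which covers counting error only.

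**Figure D4:**
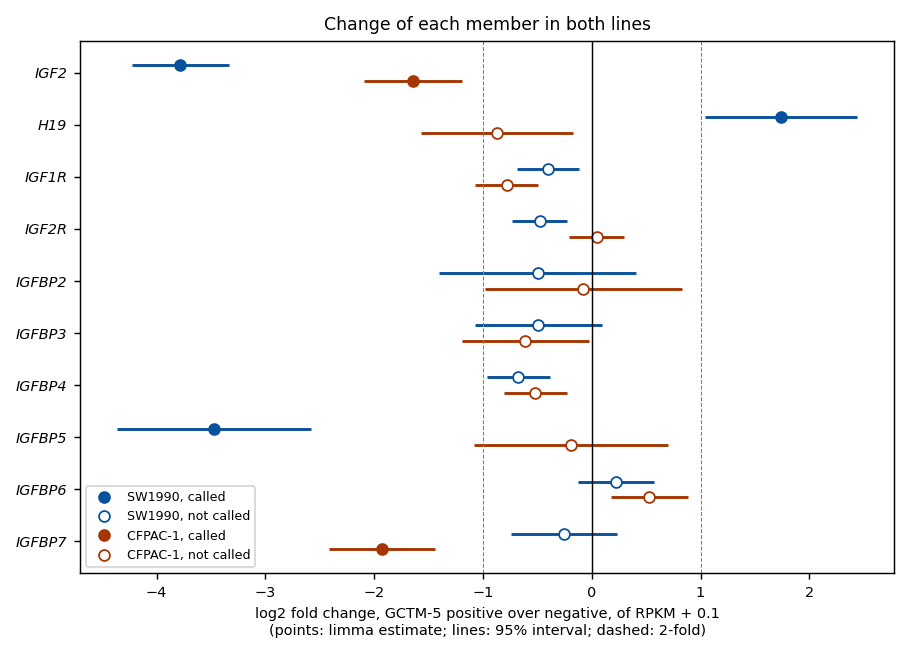
Log2 fold change of RPKM plus 0.1 in positive over negative cells for the 10 members in SW1990 and CFPAC-1, with 95% intervals from limma as lines, filled points for called changes and dashed lines at 2-fold. *IGF2* is filled on the left in both lines, at -3.78 and -1.64, while *H19*, *IGFBP5* and *IGFBP7* are each filled in 1 line.

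Between the lines, 6 of 10 members were called in negative cells and 7 in positive cells, where 36.9% and 28.5% of all genes were called. The median over all genes was 0.19 in negative cells and 0.01 after centring, with the same number of members called. *H19*, *IGFBP2* and *IGFBP6* were higher and *IGF1R*, *IGFBP5* and *IGFBP7* lower in SW1990 in both populations. *IGF2* was added to them in positive cells, with 3.83-fold less in SW1990. *H19* was 19.1-fold higher in negative SW1990 than in negative CFPAC-1 cells, and 179-fold higher in positive cells. *IGFBP7* was 52.0-fold lower in negative SW1990 cells and 17.3-fold lower in positive ones, and *IGFBP5* was 5.17-fold and 103-fold lower. These are ratios of mean RPKM. The lower side held only 2 to 10 reads of *H19* per positive CFPAC-1 sample and 8 to 18 of *IGFBP5* per positive SW1990 sample. In positive cells the limma log2 differences were 6.46 for *H19* (4.14 to 7.48 over the alternatives) and -5.65 for *IGFBP5* (-6.69 to -3.34). *IGFBP3* overlapped between the lines in both populations. *IGF2R* and *IGFBP4* were above CFPAC-1 in SW1990 by less than 2-fold, at 1.67-fold and 1.68-fold in negative cells.

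The promoters of *IGFBP5* and *H19* are shown because, of the members matched in the RefSeq promoter table (8 of 10, GRCh38.p14), their changes differed most between the lines. Each sequence holds the 250 bases before the RefSeq start and was matched once on its chromosome of GRCh37, with CG dinucleotides in capitals. The *IGFBP5* window is chr2:217560273-217560522 and the *H19* window chr11:2022497-2022746, both on the minus strand, and the latter lies within the longer *H19* span of GENCODE 44. Which start the counted *H19* RNA uses was not tested, so this window may not be the promoter of that RNA.

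IGFBP5: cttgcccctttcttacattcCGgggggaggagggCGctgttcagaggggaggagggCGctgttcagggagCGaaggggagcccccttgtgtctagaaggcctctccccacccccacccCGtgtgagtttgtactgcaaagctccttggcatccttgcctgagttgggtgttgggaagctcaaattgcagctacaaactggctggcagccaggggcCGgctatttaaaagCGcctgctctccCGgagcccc
H19: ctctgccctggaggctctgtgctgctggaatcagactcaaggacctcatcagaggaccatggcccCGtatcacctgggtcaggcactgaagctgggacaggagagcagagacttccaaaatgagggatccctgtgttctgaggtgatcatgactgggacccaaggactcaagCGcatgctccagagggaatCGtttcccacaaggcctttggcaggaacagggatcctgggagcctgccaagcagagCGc

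The *IGFBP5* window holds 8 CG dinucleotides and the *H19* window 4, against a median of 11 (quartiles 3 and 23) over 35116 promoter windows of the same length. Motifs were searched on both strands, and none of them is part of another. The letters TATAAA, a core element of some promoters, were found in neither window and in 10.7% of all windows. Only these exact letters were searched, so the similar letters TATTTAAA near the end of the *IGFBP5* window were not counted. The sequence GGGCGG, which transcription factors of the Sp family bind, was found in neither window and in 42.6% of all windows. The letters CACCTG, which Snail and ZEB factors can bind, were found in the *H19* window from 180 to 175 bases before the start, not in the *IGFBP5* window, and in 17.5% of all windows.

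Genes whose level followed that of *IGF2* most closely were *TMEM37*, *SYT11* and *PLSCR4*. Each log2 value was centred on its gene's mean, and the mean absolute difference from *IGF2* over the 12 samples was 0.33, 0.36 and 0.37 for them, the smallest among 13265 genes with a mean of at least 1 RPKM. *TMEM37* was at 8.31 ± 1.80 RPKM in negative SW1990 cells and 0.992 ± 0.361 in positive ones, and at 7.88 ± 1.06 and 2.93 ± 0.336 in CFPAC-1 (SD, n = 3). *H19* ranked 13130 among these genes, close to the end, and *IGFBP3* came first of the other members at 669.

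Around the members, 103 further genes of the axis were listed in 10 groups by role. Of the 101 in the table, 86 could be tested, of which 2 were higher and 13 lower in positive SW1990 cells, and 3 higher and 8 lower in positive CFPAC-1 cells. Their median log2 fold change was -0.21 in SW1990 and -0.02 in CFPAC-1, against -0.04 and 0.05 over all genes. Of all genes tested, 4.59% were called higher and 7.48% lower in positive SW1990 cells, and 5.65% and 4.13% in positive CFPAC-1 cells. The counts in each group by role below stand against the same shares. The genes named here are those called in both lines, or called in 1 line with a difference between the lines, beside *IGF1*, *INS* and *INSR*.

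Of the other ligands, *IGF1* was at 0 reads in all 12 samples and *INS* was above 0 in 1 negative CFPAC-1 sample only, at 0.160 RPKM. Thus *IGF2* was the detected ligand of the IGF pair. *INSR*, the insulin receptor, fell in positive cells of both lines. In SW1990 the level dropped from 3.01 ± 0.557 to 0.852 ± 0.249 RPKM (SD, n = 3; log2 fold change -1.72, limma adjusted p 0.000561), and in CFPAC-1 from 2.52 ± 0.530 to 1.05 ± 0.400 RPKM (log2 fold change -1.22, limma adjusted p 0.00540; -0.78 and not called with a pseudocount of 1). The study named *INSR* from these samples, so its direction is not independent evidence. *IGF1R* was 1.23 ± 0.150 times as abundant as *INSR* per length in negative SW1990 cells and 3.35 ± 0.631 times in positive ones, and 7.66 ± 1.24 and 11.1 ± 3.02 times in CFPAC-1.

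Of 7 proteases and protease inhibitors tested, 3 fell in positive SW1990 cells, and in CFPAC-1 1 rose and 2 fell. *PAPPA*, the protease that cuts IGFBP4, moved in opposite directions. It was at 2.12 to 2.18 RPKM in negative SW1990 cells and 0.329 to 0.479 in positive ones, and at 0.265 to 0.496 in negative CFPAC-1 cells against 1.56 to 1.78 in positive ones. The log2 fold changes were -2.20 ± 0.21 and 1.86 ± 0.21 (SE), the latter 0.93 and not called with a pseudocount of 1, and the difference of -4.06 had a limma adjusted p of 7.16e-06. *STC1*, an inhibitor of PAPPA, fell from 13.2 ± 3.10 to 4.09 ± 1.04 RPKM in SW1990 and went from 1.63 ± 0.806 to 3.09 ± 1.15 in CFPAC-1 without being called there. *PRSS23*, a secreted serine protease, fell from 312 ± 24.7 to 106 ± 16.1 RPKM in positive SW1990 cells and was at 88.2 and 98.9 RPKM in CFPAC-1. *HTRA1* and *ADAM28*, which cut binding proteins, fell in positive CFPAC-1 cells, from 4.86 to 1.14 and from 10.7 to 3.56 RPKM. *ADAM28* was also lower in positive SW1990 cells, at 2.41 and 1.33 RPKM without overlap, but by less than 2-fold (log2 difference -0.81, limma adjusted p 0.00533). Its difference between lines, 0.75 with a limma adjusted p of 0.0478, was lost in 12 of 23 alternatives, among them 10 of the 12 that left out 1 sample.

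*IGFBP1*, the binding protein outside the members, fell from 20.7 ± 2.35 to 10.1 ± 1.04 RPKM in positive SW1990 cells and was at 17.9 and 20.6 RPKM in CFPAC-1. Its log2 fold change of -1.03 in SW1990 was just past 2-fold, and it was not called in 5 of 24 alternatives, at -0.99 to -0.94 (a pseudocount of 1, median centring, and without negative replicate 2, negative replicate 3 or positive replicate 1). Of 3 proteins that bind *IGF2* messenger RNA, limma called 0 in either line, voom on recovered reads called 0, and 1 was higher in CFPAC-1 at an unadjusted p-value under 0.05. Of 5 tested regulators of *IGF2* and *H19*, the imprinted transcription factor *PLAGL1* rose in CFPAC-1, from 3.02 ± 0.987 to 8.54 ± 3.27 RPKM (log2 fold change 1.45, limma adjusted p 0.00168), and was at 10.3 and 9.03 RPKM in SW1990. Of 9 tested imprinted growth genes, 3 fell in SW1990. In CFPAC-1 limma and voom called 0, with 3 higher and 2 lower at an unadjusted p-value under 0.05. The imprinted receptor adaptor *GRB10*, 1 of these, went from 6.81 to 9.58 RPKM in negative to 0.335 to 0.430 in positive SW1990 cells, a 20.7-fold fall (log2 fold change -4.05 ± 0.26 SE, limma adjusted p 4.80e-07). In CFPAC-1 *GRB10* was at 5.14 and 4.59 RPKM, and the difference between lines was -3.84 (limma adjusted p 2.62e-05).

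Of 14 receptor adaptors, 2 rose in SW1990, while in CFPAC-1 limma and voom called 0, with 3 higher and 4 lower at an unadjusted p-value under 0.05. *SOCS3*, a feedback inhibitor of cytokine signalling, rose from 26.4 ± 2.56 to 53.4 ± 6.17 RPKM, and *GRB14*, an adaptor that inhibits the insulin receptor, went from 0 to 2 reads in negative to 9 to 24 reads in positive SW1990 samples. The *SOCS3* log2 fold change of 1.01 was not called in 5 of 24 alternatives, at 0.93 to 0.99 (a pseudocount of 1, quantile normalization, and without negative replicate 2, positive replicate 2 or positive replicate 3), and that of *GRB14*, 1.88, was 0.42 and not called with a pseudocount of 1. Of 23 genes of the PI3K-AKT-FOXO arm, the route that the receptors activate, 1 fell in SW1990 and 2 in CFPAC-1. *DEPTOR*, an inhibitor of mTOR, was called in both, and it fell from 10.8 ± 2.59 to 1.79 ± 0.726 RPKM in CFPAC-1 while it held only 2 to 14 reads per SW1990 sample. The *DEPTOR* call in SW1990 was lost in 6 of 24 alternatives (a pseudocount of 1, quantile normalization, voom, and without negative replicate 1, negative replicate 3 or positive replicate 1).

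Of 9 integrin and proteoglycan partners of the binding proteins, 3 fell in SW1990, and 1 rose and 2 fell in CFPAC-1. *ITGB3*, an integrin subunit, fell in SW1990 from 3.51 ± 0.810 to 0.185 ± 0.0788 RPKM, and in CFPAC-1 from 30.7 ± 10.2 to 6.09 ± 2.15 RPKM. *LRP1*, an endocytic receptor, also fell in both, by log2 fold changes of -1.69 and -1.11, the latter not called with a pseudocount of 1 or without negative or positive CFPAC-1 replicate 1. *ITGA5*, another integrin subunit, fell from 10.3 ± 1.18 to 3.18 ± 0.135 RPKM in SW1990 and was at 3.64 and 6.95 RPKM in CFPAC-1. *CAV1*, the main protein of caveolae, rose from 98.4 ± 19.5 to 302 ± 67.0 RPKM in CFPAC-1 and was at 847 and 516 RPKM in SW1990. Of 13 tested genes of mannose 6-phosphate sorting, *CTSB*, a lysosomal protease, was the 1 called in each line, at 186 ± 14.0 and 67.9 ± 13.8 RPKM in negative and positive cells of SW1990 and at 99.3 ± 2.83 and 50.1 ± 9.39 RPKM in those of CFPAC-1. Its log2 fold change in CFPAC-1, -1.003, was not called in 4 of 24 alternatives, at -0.99 to -0.86 (a pseudocount of 1, the ratio of means, and without negative or positive replicate 1).

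**Figure D5:**
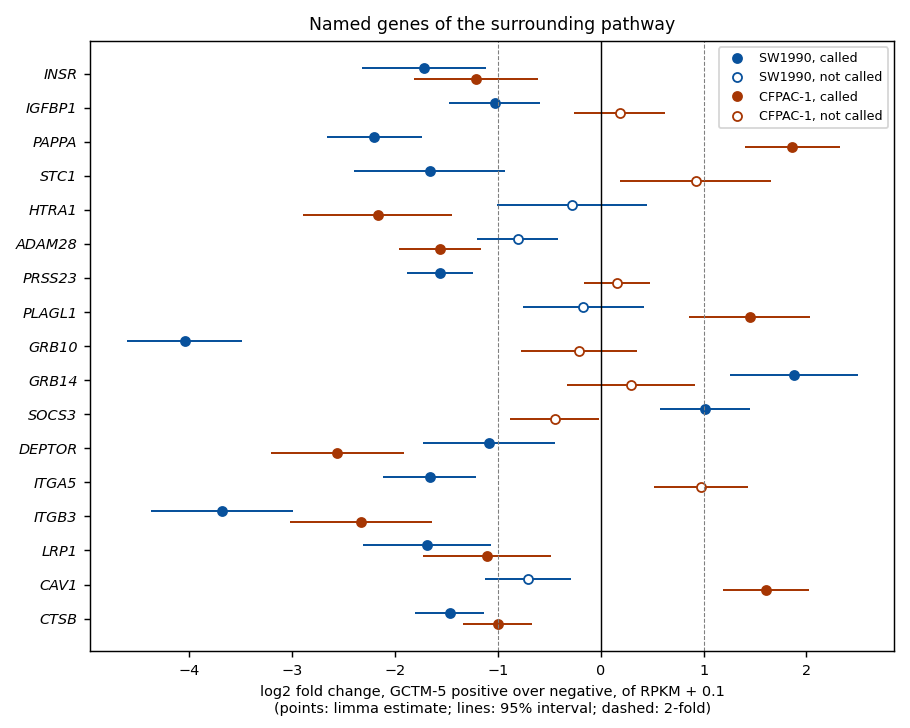
Log2 fold change of RPKM plus 0.1 in positive over negative cells for 17 named genes around the members, with 95% intervals from limma as lines, filled points for called changes and dashed lines at 2-fold. *PAPPA* lies at -2.20 in SW1990 and 1.86 in CFPAC-1, and *GRB10* at -4.05 in SW1990 with CFPAC-1 near 0.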

How the data were processed

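RNA of sorted SW1990 and CFPAC-1 cells, with 3 samples in each of 4 groups, was sequenced on an Illumina instrument after poly(A) selection. The authors aligned reads to hg19 (GRCh37, also named in the submitters' processing notes) and used QuasR to make the deposited RPKM values, which are scaled for library size and gene length. The annotation, version and use of strand are not given in the sources used here, and the methods and the labels name different library kits.

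Read totals were recovered from the values with the lengths of single-exon genes in GENCODE 44 on GRCh37, and all 19654 genes above 0 gave whole reads to within 0.01 of a read. The shortest length that gave whole reads was taken, so this is no check for genes above 0 in few samples. Their true reads may be a multiple of those recovered. Totals were 9969697 to 26159330 reads. The floor on reads covers counting error only, as PCR reads are not independent molecules. Intervals come from the limma fit and measure the spread between the samples of a group.

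The 16236 genes that averaged 0.1 RPKM or more were fitted on log2(RPKM + 0.1) with limma 3.58.1 in R 4.3.3 (4 group means, eBayes with trend), 2-sided, with Benjamini-Hochberg adjustment. Fold changes of low genes are understated on this scale. The study used TCC, which was not used here. An exact permutation test of 3 against 3 samples cannot go below p = 0.1. On simulated data, 99.0% of genes made 4-fold higher and 92.9% of those made 4-fold lower in SW1990 were called, as were 0.204% of unchanged genes in CFPAC-1 (16152 genes). The simulated samples shared a common mean per gene and a fixed spread for all genes, with no other difference between lines. These rates may therefore not hold for the real samples, where some genes spread more.

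Alternatives were pseudocounts of 0.01 and 1, no filter or a mean of at least 1 RPKM, median centring, quantile normalization, each line alone, a replicate block, no trend, voom on recovered reads, the ratio of means, an adjusted p under 0.05 and each sample left out in turn. Samples were not paired by number in the main fit. The members and the gene lists were chosen with earlier results of these data known. All 10 members are named, and of the lists those genes called in both lines, or in 1 line with a difference between lines, beside *IGF1*, *INS* and *INSR*. The 3 genes most like *IGF2* were those with the smallest mean absolute difference from it in centred log2 values. Promoter sequences are from RefSeq (GRCh38.p14). Python 3.11.15, pandas 2.3.3, numpy 2.4.6 and matplotlib 3.10.9 were used.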

Additional observations from a re-analysis of the deposited data

Results flagged for a closer look

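For 5 members the change from negative to positive cells differed between SW1990 and CFPAC-1 by a test of the difference itself, made in the limma fit over all genes. The log2 change in SW1990 minus that in CFPAC-1 was -2.14 for *IGF2*, which fell in both lines, -3.28 for *IGFBP5* and -0.52 for *IGF2R*. It was 2.61 for *H19* and 1.68 for *IGFBP7*. Of all genes, 26.9% passed this test. The cause was not tested for any of them.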

How the results depend on the processing

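Members called numbered 3 in SW1990 under all alternatives run, and 2 in CFPAC-1 except with a pseudocount of 0.01, where *H19* (-1.31) made 3. Between the lines they numbered 6 in negative and 7 in positive cells, and 5 and 6 with a mean of at least 1 RPKM, which left out *IGFBP2*. With each replicate left out in turn, 4 to 5 members differed between lines, the other listed genes called numbered 12 to 16 for SW1990 and 10 to 13 for CFPAC-1, and the *H19* to *IGF2* ratio was 0.140 to 0.151 in negative and 6.43 to 7.96 in positive SW1990 cells and 0.00828 to 0.00993 and 0.00773 to 0.0144 in those of CFPAC-1. With a pseudocount of 1, 7 of the other listed genes were called in CFPAC-1 in place of 11. The *IGF2R* difference was lost with median centring, quantile normalization (where that of *IGF1R* was called), the replicate block and 6 of the 12 samples left out. The methods of the study describe triplicate sorts, so a positive and a negative sample may share a sort. Same-numbered samples had correlations of 0.02 to 0.18 (SW1990) and of -0.06 to 0.00 (CFPAC-1). Those of differently numbered samples were -0.25 to 0.16 (SW1990) and -0.03 to 0.04 (CFPAC-1). These ranges overlap and cannot settle whether the numbers are pairs, so only the replicate block took them as pairs. With the replicate block, 3 and 2 members were called and 4 in place of 5 differed between lines (*IGF2R*, adjusted p 0.0623).

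Direction changed for the following log2 values, of which the *ITGB3* difference alone had been called. In CFPAC-1, *IGF2R* was -0.053 with median centring, -0.075 with quantile normalization and -0.061 to 0.12 with a replicate left out. *IGFBP2* there was 0.00082 with a pseudocount of 1, 0.014 with quantile normalization, 0.069 as a ratio of means and -0.52 to 0.14 with a replicate left out, and *IGFBP5* was -0.61 to 0.090. The difference between lines of *IGFBP2* was 0.16 with a pseudocount of 0.01 and -0.77 to 0.021 with a replicate left out, and that of *IGFBP3* was -0.13 to 0.45. That of *IGF2-AS1* was -0.0041 with a pseudocount of 0.01, -0.38 with voom and -0.065 to 0.70 with a replicate left out. *PLAGL1* in SW1990 was -0.30 to 0.0076 with a replicate left out, and the *ITGB3* difference was 0.25 with a pseudocount of 1. The call of the *ITGB3* difference, -1.35 in the main fit, was lost in 16 of 23 alternatives, 9 of them with a replicate left out. The causes were not tested. At 0 to 4 reads per library, a change of *IGFBP2* within CFPAC-1 was not detectable at this depth.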
